A study of Mus musculus with 3 samples.

Results

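The Rab GTPases are the small GTP-binding proteins that give membrane compartments their identity and steer vesicles between them. Their genes were read on 3 mouse arrays as every non-control probe whose accession is paired with a symbol of the form Rab plus 1 or 2 digits, with at most 1 letter and 1 more digit behind them. The rule found 57 Rab genes, read by 80 probes, among 20660 genes on the array. Of these, 49 were measured, among 13179 measured genes in all. A gene counted as measured when at least 3 of its 6 readings (3 arrays, both channels) stood well above background, and 47 of the 49 passed in all 6. The 8 that were not measured were Rab17, Rab25, Rab26, Rab27b, Rab30, Rab39b, Rab40b and Rab9b. The rule uses names and no measured value, but it was written with earlier results of these data known.

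The cells were bone marrow-derived macrophages of wild-type C57BL/6J mice, matured with CSF-1 from L929-conditioned medium and held in low serum before treatment. The tested cultures received adiponectin, a hormone secreted by fat tissue, at 12 µg/ml for 18 h, and the cultures they were set against were left without it. Each of the 3 arrays, labelled as biological replicates, held treated RNA in one dye and untreated RNA in the other, so 6 RNA samples gave 3 ratios of treated over untreated. Replicates 1 and 3 carried the treated RNA in the Cy3 channel, and replicate 2, with the dyes swapped, in the Cy5 channel. The labels do not say whether the replicates came from separate mice, so every p-value covers only the spread between these 3 arrays.

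A Rab protein works as a switch. It is prenylated with the help of a Rab escort protein, delivered to a membrane, loaded with GTP there by an exchange factor, read by effectors such as tethers and motor adaptors, and switched off by a GTPase-activating protein, after which the inhibitor GDI extracts it. In macrophages this family orders phagosome maturation, in which Rab5 on the young phagosome gives way to Rab7 before fusion with lysosomes, and it serves receptor recycling, cytokine release and autophagy. Transcript levels on an array report none of the switching itself.

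Promoter sequence of the most strongly raised and the most strongly lowered member is shown. With the brightest probe taken for each gene, these 2 genes carry the largest changes described below. Each window, from RefSeq on build GRCm38.p6, runs 5′ to 3′ along the gene from 250 bases before its start to 50 bases after it. The Rab20 window is chr8:11478591-11478890 on the minus strand and the Rab19 window is chr6:39381103-39381402 on the plus strand. Capitals mark matches on either strand to 4 motifs, namely the NF-kB form GGGANNNNCC, the core of PU.1 sites GAGGAA, the E-box CACGTG and the cyclic AMP response half-site TGACG.
Rab20: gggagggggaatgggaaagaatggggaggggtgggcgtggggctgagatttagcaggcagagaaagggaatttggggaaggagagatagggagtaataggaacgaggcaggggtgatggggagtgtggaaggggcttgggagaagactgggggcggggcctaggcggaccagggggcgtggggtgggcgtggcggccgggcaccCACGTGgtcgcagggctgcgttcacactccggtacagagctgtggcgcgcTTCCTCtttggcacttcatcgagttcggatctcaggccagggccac
Rab19: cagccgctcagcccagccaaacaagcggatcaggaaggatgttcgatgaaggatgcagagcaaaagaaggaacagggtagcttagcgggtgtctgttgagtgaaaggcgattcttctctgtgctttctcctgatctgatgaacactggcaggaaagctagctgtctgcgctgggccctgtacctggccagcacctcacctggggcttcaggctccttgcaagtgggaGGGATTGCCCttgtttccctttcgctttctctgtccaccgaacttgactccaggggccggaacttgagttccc
In the Rab20 window the capitals are 1 match to the E-box and 1 to the PU.1 core, read on the other strand. In the Rab19 window they are 1 match to the NF-kB form. No marked match overlapped another.

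RefSeq windows were matched for 43 of the 49 measured Rab genes, 55 windows in all, since some genes have several starts whose windows can overlap. The NF-kB form was in 18.2% of the Rab windows against 20.7% of all 32851 windows of this length. The PU.1 core was in 20% against 28.3%, and the E-box was in 10.9% against 7.15%. The half-site TGACG was in 43.6% of the Rab windows, 24 of 55, against 20.8% of all. A match describes these letters only and says nothing of binding.

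After loess normalization, most Rab transcripts of adiponectin-treated cells lay within a 2-fold change and a few rose or fell strongly. Rab20, of early endosomes and phagosomes, rose 4.13-fold, and Rab38, of lysosome-related organelles, rose 2.61-fold. Rab19, assigned to the Golgi, fell 5.68-fold and Rab7b, which serves retrieval from endosomes to the trans-Golgi network, fell 3.74-fold. Rab28 fell 2.46-fold and Rab33b, a Golgi Rab that binds the autophagy protein Atg16l1, fell 2.20-fold. On the brightest probe of each gene, the other 43 members, 87.8% of those measured, had log2 changes under 1 in size. So had 80.6% of all measured genes. These counts depend on the probe, since other probes of Rab10, Rab9 and Rab43 read 2.06, 1.46 and 1.03. A second Rab33b probe read -0.11. The counts also depend on the normalization. With each array centred on its median in place of loess, 31 of the 49 Rab genes, and 53.0% of all genes, changed by over 1 in size.

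In limma with Benjamini-Hochberg adjustment over all 13179 genes at a threshold of 0.05, 11 Rab genes were higher in treated cells and 26 were lower, while 12 were not called; 9 of the 11 higher ones turned negative under that median centring. In percent, 22.4% of the Rab genes were higher, beside 24.5% of all measured genes, and 53.1% were lower, beside 46.1% of all. Calls in either direction covered 70.6% of all genes. With at least a 2-fold change added, the counts were 2 Rab genes higher, beside 6.8% of all genes, and 4 lower, beside 12.6%. The Rab shares thus lay near those of the whole array. The median log2 change was -0.24 over the Rab genes and -0.17 over all genes. The quartiles of the Rab changes were -0.58 and 0.10, and those of all genes -0.64 and 0.22.

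The balance of directions depended on where zero was set. With each array centred on the measured genes, 13 Rab genes were higher, beside 35.2% of all genes, and 18 were lower, beside 36.7%. The lower share of the Rab calls was then 58.1% rather than 70.3%, and that of all calls 51.0% rather than 65.3%. Median centring of all probes in place of loess shifted the median of all measured genes to -1.03 and that of the Rab genes to -1.18, a difference of -0.16. No gene was called in that setting, in which 5314 genes, 18 of them Rab genes, had an unadjusted p under 0.05. Rab20 and Rab38 were the only Rab genes above 0 there, so the 6 uncalled Rab genes above 0 after loess (Rab5a, Rab8a, Rab4b, Rab12, Rab3b and Rab40c) were below 0 as well. Changes below are those after loess, and for genes called higher whose sign turned, the value under median centring is added.

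All 37 called Rab genes had the same sign on the 3 arrays, which calling favours because it uses the same ratios. The treated and untreated channel levels of 39 of the 49 did not overlap, beside 75.6% of all measured genes. The median Rab ratio was -0.24, -0.18 and -0.27 on replicates 1, 2 and 3, and the median over all genes was -0.16, -0.14 and -0.20. Leaving aside median centring, the 11 higher calls and 16 of the 26 lower calls held in each of the other 14 settings tried, and the lower calls of Rab23 and Rab39 held in the 13 settings that measured them. The 8 lower calls that ended in at least 1 of them were Rab11b, Rab18, Rab1b, Rab21, Rab27a, Rab33a, Rab37 and Rab5b. Their log2 changes were between -0.45 and -0.22. All 8 calls ended with the arrays centred on the measured genes, and for Rab27a this was the only such setting.

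The labelled cell type was checked on its markers. All 7 macrophage markers on the array were measured, 6 were lower and 1, Cd14, was higher, and their summed intensity was 154636 to 191442 in treated and 309456 to 336121 in untreated samples. Of the neutrophil markers 8 were measured, 3 higher and 3 lower, with sums of 26629.8 to 41711 in treated and 25222.8 to 29051.8 in untreated samples. Of the other lists, 3 dendritic cell markers were measured (1 higher, none lower), 2 T cell markers (1 higher), 2 B cell markers (1 lower) and 4 fibroblast markers (2 higher), and no mast cell or erythroid marker passed the filter. The part of these shifts in the Rab results was not tested, and in such bulk RNA fewer cells of a type cannot be told apart from less RNA per cell. Between 43.9% and 47.5% of the probes were well above background in treated samples, against 53.4% to 54.3% in untreated ones.

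**Figure D1:**
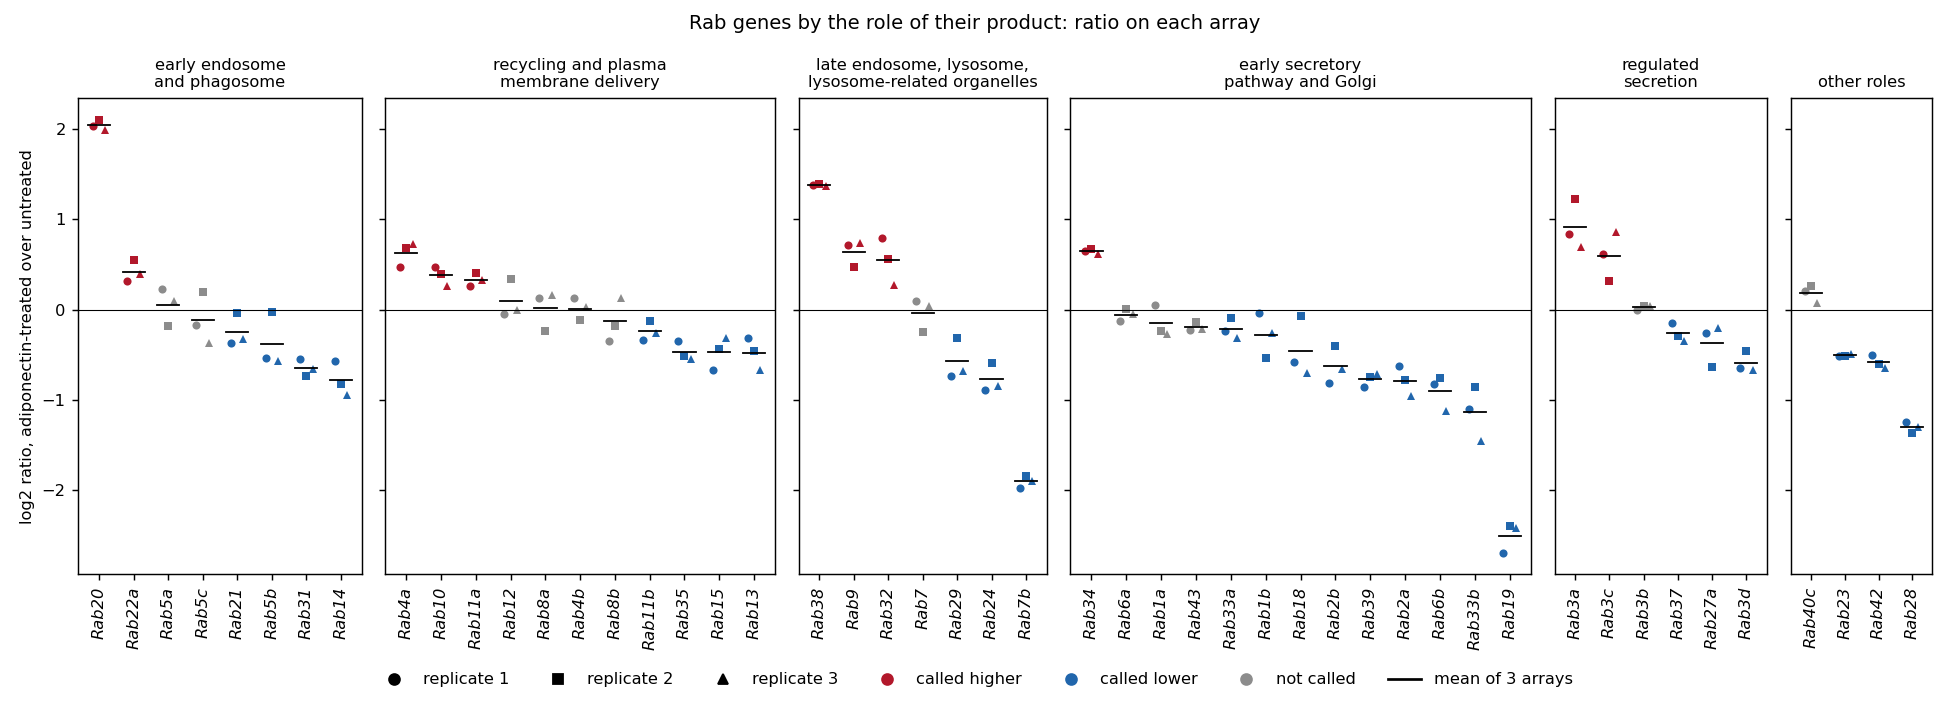
Log2 ratio of adiponectin-treated over untreated cells (vertical axis) for each of the 49 measured Rab genes, in panels by role, with 1 marker per array and a bar at the mean. Rab20 and Rab38 stand highest and Rab19, Rab7b, Rab28 and Rab33b lowest, and 9 of the 11 genes in red turn negative under median centring, all but Rab20 and Rab38.

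Early endosome and phagosome Rabs numbered 8 measured genes, of which 2 rose, 4 fell and 2 were not called, with a median log2 change of -0.18, and 2 were higher and 2 lower with the arrays centred on the measured genes. These are 25% and 50% before centring, beside 24.5% and 46.1% of all genes. After it the shares of all genes were 35.2% higher and 36.7% lower. Rab20 had log2 normalised intensities of 11.84, 11.78 and 11.80 in treated cells, against 9.80, 9.68 and 9.81 in untreated cells, on replicates 1, 2 and 3. The treated samples were all about 4 times as bright as the untreated ones, with no overlap. This is a log2 change of 2.05 ± 0.081 (moderated SE, 3 arrays, limma adjusted p = 2.38e-07). Its change was larger than that of 98.2% of measured genes. Under median centring it was 0.86 and not called.

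Rab22a, which serves sorting and recycling from early endosomes, rose by a log2 change of 0.42 ± 0.086, and its ratio was 0.32, 0.55 and 0.40 on the 3 arrays, but -0.76 under median centring. Rab14, of Golgi and endosome traffic and of phagosomes, fell by 0.78 on the log2 scale, and Rab31, which moves cargo between the Golgi and endosomes, fell by 0.65. The products of the 3 Rab5 genes drive early endosome fusion. Rab5a at 0.05 and Rab5c at -0.12 were not called, and their ratios had both signs over the arrays. The second Rab5a probe read 0.39, with ratios of 0.38, 0.50 and 0.30, and the mean over both probes, 0.22, was called higher (limma adjusted p = 0.030). Rab5c was called lower without replicate 2, at -0.27 (limma adjusted p = 0.032). The 2 arrays left in that fit both carried treated RNA in Cy3, so treatment and dye cannot be told apart there. With a dye term on all 3 arrays Rab5c was at -0.04 and not called. Rab5b was called lower at -0.38, with ratios of -0.53, -0.02 and -0.57, so replicate 2 was close to no change. Its other 3 probes read 0.14, 0.03 and 0.02, and the call ended without replicate 1, without replicate 3 and with the mean over probes. Rab21, which binds integrins, was called lower at -0.25 with ratios of -0.37, -0.04 and -0.33, and its call also ended without replicate 1 or 3.

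Late endosome, lysosome and lysosome-related organelle Rabs held changes of both signs, with 3 of 7 higher, 3 lower, 1 not called and a median of -0.03. The counts were the same after centring on the measured genes. The shares were 42.9% higher and 42.9% lower, beside 24.5% and 46.1% of all genes before that centring and 35.2% and 36.7% after it. Rab38 had levels of 7.86, 8.16 and 8.03 in treated cells, against 6.48, 6.76 and 6.66 in untreated cells. Its 3 ratios, 1.38, 1.40 and 1.37, were nearly alike, although the untreated signal was dim. Its log2 change was 1.38 ± 0.079 (limma adjusted p = 1.4e-06). The change was 2.22 with normexp offset 0, 2.47 with the scanner software's own log ratio and 1.76 in the authors' deposited table, and 0.83 under median centring. These values rest on 1 probe, since the second Rab38 probe, at -0.01, was not well above background in any of the 6 readings.

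Rab7b had levels of 11.63, 11.83 and 11.75 in treated cells, against 13.60, 13.67 and 13.64 in untreated cells. It was a bright probe in every sample, and the groups lay far apart. Rab7b thus had a log2 change of -1.90 ± 0.081 (limma adjusted p = 3.38e-07). Its close relative Rab7, the late endosome and phagosome Rab, was not called, at -0.03 ± 0.095, with ratios of 0.10, -0.24 and 0.04.

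Rab32, which with Rab38 delivers cargo to lysosome-related organelles, rose by a log2 change of 0.55, with ratios of 0.80, 0.56 and 0.28, but was at -0.60 under median centring. Rab9, which returns mannose 6-phosphate receptors to the Golgi, rose by 0.64, but was at -0.47 under median centring. The other 2 probes of Rab9 read 0.73 and 1.46, so its direction was shared by all 3 probes and its size was not. Rab24, linked to autophagy, fell by 0.77 and Rab29, a partner of the kinase Lrrk2, fell by 0.57 on the log2 scale.

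**Figure D2:**
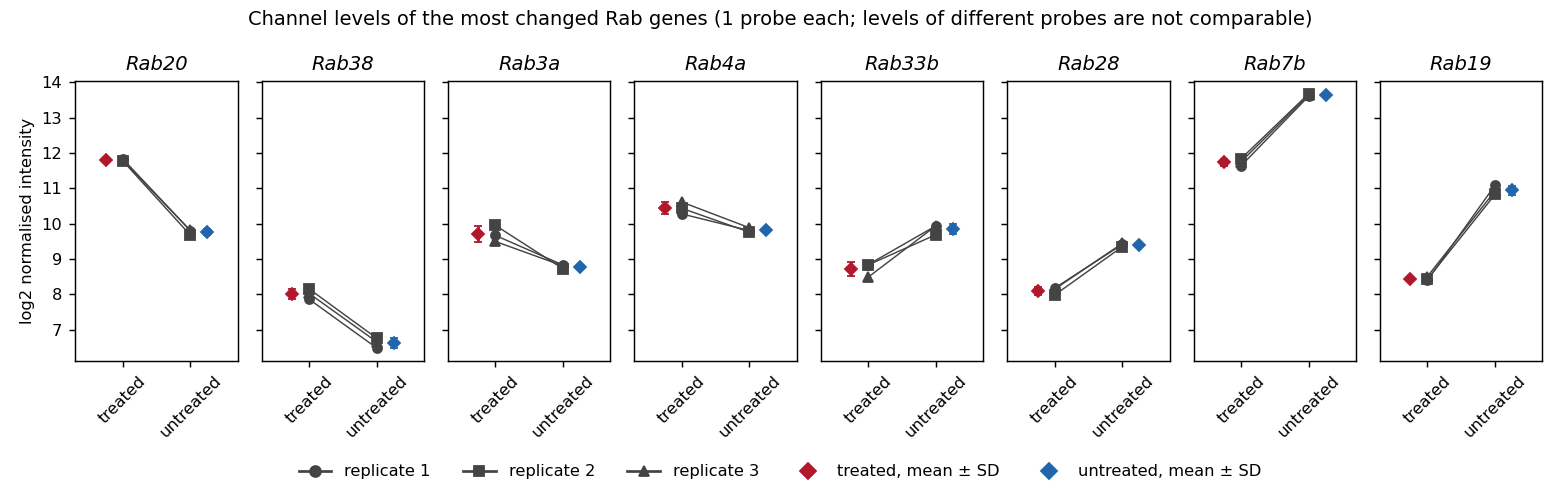
Log2 normalised intensity (vertical axis) of 8 Rab genes, the 6 changed at least 2-fold and the most changed of the remaining roles, in treated (left) and untreated (right) channels, with lines joining the channels of 1 array and diamonds for mean ± SD. In no panel do treated and untreated levels overlap, which the choice of large changes favours and which holds for 75.6% of all measured genes. Rab3a and Rab4a turn negative under median centring.

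Of 13 early secretory and Golgi Rabs, 1 was higher, 9 were lower (69.2%, beside 46.1% of all genes) and 3 were not called, with a median log2 change of -0.45. Centred on the measured genes, 1 was higher and 6 were lower, beside 35.2% and 36.7% of all genes, and the median was -0.28. Rab19 had levels of 8.39, 8.42 and 8.50 in treated cells, against 11.09, 10.83 and 10.92 in untreated cells. Every untreated sample was more than 2 log2 units above every treated one. The log2 change was -2.51 ± 0.092 (limma adjusted p = 1.7e-07), lower than in all but 0.41% of measured genes.

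Rab33b had levels of 8.84, 8.83 and 8.48 in treated cells, against 9.94, 9.69 and 9.94 in untreated cells. The treated level was lowest on replicate 3, and the groups did not overlap. Its log2 change was -1.14 ± 0.116 (limma adjusted p = 3.74e-05). A second probe of Rab33b read -0.11, so the 2 probes differ by 1.03 and the size of this fall rests on the brighter one. The mean of both probes was -0.62.

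Both Rab2 genes, which act between the endoplasmic reticulum and the Golgi, fell, Rab2a by 0.79 and Rab2b by 0.62 on the log2 scale. Rab6b, a retrograde Golgi Rab, fell by 0.90, or by 1.51 in the scanner software's log ratio, while Rab6a, its widely expressed relative, was at -0.06 and not called. Rab1a and Rab1b, which act in traffic from the endoplasmic reticulum to the Golgi, were at -0.15 (not called) and -0.28 (called lower). The Rab1b ratios were -0.04, -0.54 and -0.26, and its call ended in 9 of 14 settings, leaving out replicate 2 or 3 among them. Rab18, of lipid droplets and the endoplasmic reticulum, was called lower at -0.45 with ratios of -0.58, -0.07 and -0.71, and its call ended without replicate 1 or 3. Rab33a was called lower at -0.22, also not without replicate 1 or 3.

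Rab39 was not well above background in any treated sample and was in all 3 untreated ones. After loess it was at least 1.71-fold lower (measured means 6.17 in treated and 6.94 in untreated cells, limma adjusted p = 4.65e-05), a bound equal in size to its measured change. With the arrays centred on the measured genes Rab39 was at -0.60 on the log2 scale, so the bound holds only after loess. In the scanner software's log ratio Rab39 was at -3.86. Rab43 was not called at -0.19, but its second probe read 1.03, and the mean over both was 0.42 and called higher, so its direction depends on the probe. On its brightest probe Rab43 was called lower with no filter on dim probes, with array weights and in the separate-channel fit. Rab34, of the Golgi and macropinosomes, was the higher member of this role at 0.65 ± 0.080, with ratios of 0.65, 0.68 and 0.61, but was at -0.54 under median centring.

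Recycling and plasma membrane Rabs had small changes of both signs, with 3 of 11 higher (27.3%, beside 24.5% of all genes), 4 lower (36.4%, beside 46.1%), 4 not called and a median of 0.01. Centred on the measured genes 4 were higher and 3 lower, beside 35.2% and 36.7% of all genes, and the median was 0.18. Rab4a, which returns receptors quickly from early endosomes to the surface, had levels of 10.27, 10.43 and 10.61 in treated cells, against 9.80, 9.76 and 9.88 in untreated cells. All treated samples lay above all untreated ones. The log2 change was 0.63 ± 0.088 (limma adjusted p = 0.000249), its second probe read 0.66, and median centring gave -0.54. Rab11a, of the recycling endosome, rose by 0.33, but was at -0.82 under median centring.

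Rab10, which takes cargo to the plasma membrane, rose by 0.38 ± 0.085 on its brightest probe by mean level, but was at -0.78 under median centring. Its second probe had ratios of 2.11, 2.11 and 1.98, a mean of 2.06, so the probes agree on the direction after loess and differ by 1.68 in size. Rab13 fell by 0.48, Rab15 by 0.47 and Rab35, which acts in fast recycling, by 0.47 on the log2 scale. Rab11b was called lower at -0.24, and that call ended in 7 of 14 settings. Centring on the measured genes and leaving out replicate 1 or 3 were among them. Rab8a at 0.02, Rab8b at -0.13, Rab4b at 0.01 and Rab12 at 0.10 were not called, and the 2 probes of Rab8b, at -0.13 and 0.11, had opposite signs. The second Rab8a probe read 0.41, with ratios of 0.45, 0.15 and 0.62, and Rab12 was called higher with the arrays centred on the measured genes, at 0.27 (limma adjusted p = 0.030).

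Regulated secretion Rabs split within the Rab3 group, and the role had 2 of 6 higher, 3 lower (33.3% and 50%, beside 24.5% and 46.1% of all genes) and 1 not called, with a median of -0.12. Centred on the measured genes 2 were higher and 1 was lower, beside 35.2% and 36.7% of all genes. Rab3a, best known from synaptic vesicle release, had levels of 9.67, 9.95 and 9.49 in treated cells, against 8.83, 8.72 and 8.80 in untreated cells. The treated samples varied more than the untreated ones and lay above them. Rab3a had a log2 change of 0.92 ± 0.112 (limma adjusted p = 0.000104), but -0.18 under median centring. Rab3c rose by 0.60 and its second bright probe read 0.61, but the gene was at -0.53 under median centring, and the remaining probe of the same accession was not well above background in any of the 6 readings. Rab3d, of secretory granules, fell by 0.59, with a second probe at -0.05. Rab3b, at 0.02, was not called. Rab27a, which docks secretory lysosomes and exosome-bearing compartments, was called lower at -0.37 with ratios of -0.25, -0.63 and -0.21, and Rab37 at -0.26. The scanner software's log ratio of Rab27a was -0.86. The Rab27a and Rab37 calls both ended with the arrays centred on the measured genes, and that of Rab37 also without replicate 3.

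Of the 4 measured Rabs with other roles, 3 fell, and the same number were lower after centring on the measured genes, when 1 was higher. This lower share was 75%, beside 46.1% of all genes before that centring and 36.7% after it. Rab28, a cilium-associated Rab whose loss causes cone-rod dystrophy in humans, had levels of 8.17, 7.98 and 8.14 in treated cells, against 9.41, 9.34 and 9.44 in untreated cells. The 3 samples of each group lay close together and far from the other group. The log2 change was -1.30 ± 0.081 (limma adjusted p = 2.19e-06). Rab42 fell by 0.58, or by 1.20 in the scanner software's log ratio. Rab23, a negative regulator of Hedgehog signalling, was not well above background in any treated sample. After loess it was at least 1.42-fold lower (measured means 6.24 in treated and 6.75 in untreated cells, limma adjusted p = 0.000478). With the arrays centred on the measured genes Rab23 was at -0.34 on the log2 scale, so that bound holds only after loess. Its scanner software log ratio was -2.91, and a second Rab23 probe was not well above background in any of the 6 readings. Rab40c, which joins a ubiquitin ligase, was at 0.18 and not called, but was called higher with the arrays centred on the measured genes, at 0.35 (limma adjusted p = 0.0039).

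**Figure D3:**
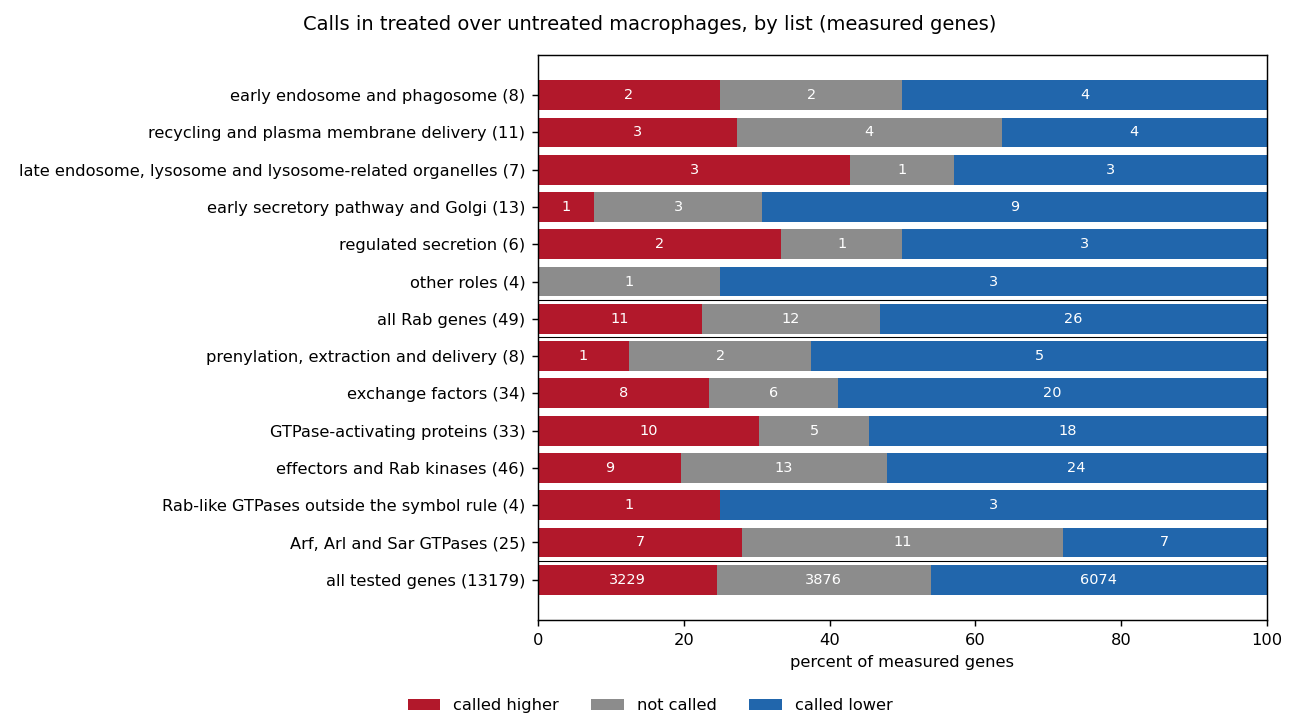
Share of measured genes (horizontal axis, percent) called higher, not called and called lower in treated over untreated cells, for the 6 Rab roles, all Rab genes, the lists of the Rab cycle, related GTPases and all genes, with counts in the bars. The Rab bar (11, 12 and 26 genes) lies near that of all genes, and with median centring in place of loess no gene is called.

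Close relatives could differ widely in their ratios. Of 18 pairs of Rab paralogues, 12 kept the sign of their difference on all 3 arrays, but an exact sign test over 3 arrays cannot give a two-sided p below 0.25, so the differences are given without a test. A constant shift of an array's zero does not move such a difference, but median centring in place of loess can, and its value is given where it differs by over 1.5 times. Rab7 exceeded Rab7b in log2 ratio by 2.07, 1.60 and 1.94 on replicates 1, 2 and 3 (mean 1.87 ± 0.25 SD). Rab3a exceeded Rab3d by 1.48, 1.69 and 1.36 (mean 1.51 ± 0.17 SD). These pairs are named because their gaps are the largest of the 18, so a gap set against its own spread is no test. The Rab3d value is that of its brighter probe, at -0.59, and the second Rab3d probe read -0.05.

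Rab33a exceeded Rab33b by 0.86, 0.76 and 1.14 (mean 0.92, and 1.45 under median centring), though the second Rab33b probe, at -0.11, lay above Rab33a, at -0.22. Rab6a exceeded Rab6b by 0.69, 0.77 and 1.08 (mean 0.85, and 0.38 under median centring). Rab11a exceeded Rab11b by 0.60, 0.54 and 0.59, the steadiest of the gaps, with an SD of 0.034. Rab4a exceeded Rab4b by 0.35, 0.80 and 0.70. Rab32 lay below Rab38, with differences of -0.58, -0.84 and -1.09 in log2 ratio, both genes being higher after loess and Rab32 negative under median centring, where the difference was -1.42 in place of -0.84. The dim Rab3b differed most between the normalizations, since Rab3a minus Rab3b was 0.90 after loess and -0.09 under median centring, Rab3b minus Rab3c -0.57 and 0.45, and Rab3b minus Rab3d 0.62 and 1.68.

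The pairs Rab1a and Rab1b, Rab2a and Rab2b, Rab8a and Rab8b, Rab5a and Rab5b, Rab5a and Rab5c, and Rab3a and Rab3c changed the sign of their difference between arrays. Rab1a minus Rab1b, for example, was 0.09, 0.31 and -0.01. Whether a probe also binds the transcript of a relative was not tested.

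**Figure D4:**
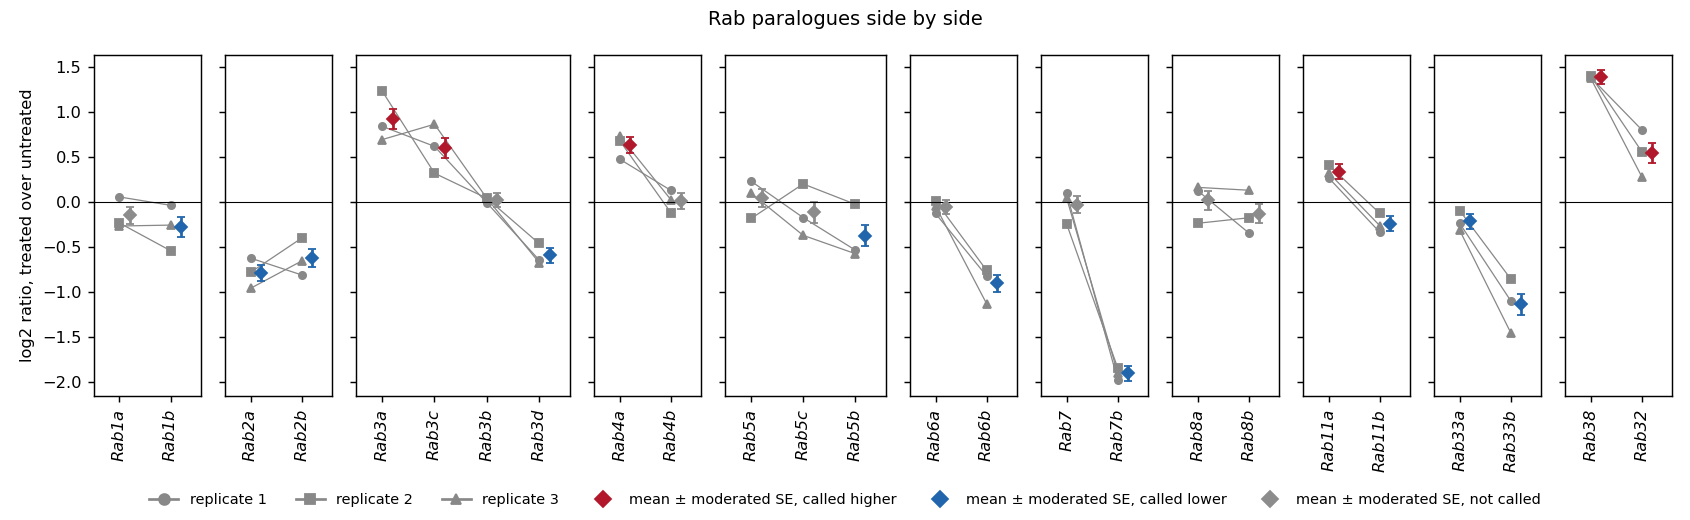
Log2 ratio of treated over untreated cells (vertical axis) for paralogous Rab genes set side by side, with lines for the 3 arrays and diamonds for the mean ± moderated SE. Rab7 and Rab7b, Rab3a and Rab3d, and Rab6a and Rab6b lie apart on every array, whereas the lines of Rab1, Rab2, Rab5a to Rab5c and Rab8 cross; the higher genes other than Rab38 turn negative under median centring.

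A fit that also held the dye as a term, with only 1 residual degree of freedom, measured dye bias in the family. No Rab gene was called for dye in limma, and only 45 of all 13179 measured genes were. With so few calls in all, the lack of a Rab gene among them says little. In that fit 10 Rab genes had an unadjusted p under 0.05. The share over all genes was not counted, so whether 10 is many or few is not known here. The largest dye coefficient in the family was 0.29 in size, that of Rab18.

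The genes that run the Rab cycle had 28 higher, 67 lower and 26 not called among 121 measured of 135 listed, and no call under median centring. With the arrays centred on the measured genes, 37 were higher and 55 lower, beside 35.2% and 36.7% of all genes. Before that centring the lower share was 55.4%, beside the 46.1% of all genes given above, and the higher share 23.1%, beside 24.5%. The median log2 change was -0.36, and -0.19 with the arrays centred on the measured genes. The lists were drawn up by role.

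Among 8 genes of prenylation, extraction and delivery, 5 fell and 1 rose (62.5% and 12.5%, beside 46.1% and 24.5% of all genes). After centring on the measured genes 5 were lower and 2 higher, beside 36.7% and 35.2% of all genes. Gdi2, a GDI that extracts Rabs from membranes, had levels of 13.54, 13.39 and 13.23 in treated cells, against 14.35, 14.50 and 14.28 in untreated cells, and a log2 change of -0.99 ± 0.091 (limma adjusted p = 1.9e-05). The 2 subunits of Rab geranylgeranyl transferase had opposite signs, with Rabggta at -0.89 and Rabggtb at 0.64, though Rabggtb was at -0.50 under median centring. Chml, a Rab escort protein, fell by 0.83 and Rabif by 0.81 on the log2 scale.

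Of 34 exchange factors, 8 rose and 20 fell (23.5% and 58.8%, beside 24.5% and 46.1% of all genes). After centring on the measured genes 9 were higher and 18 lower, beside 35.2% and 36.7% of all genes. Under median centring 2 of the 8 that rose turned negative. Ric1, which with Rgp1 activates Rab6a, had levels of 12.67, 12.44 and 12.73 in treated cells, against 9.27, 9.27 and 9.35 in untreated cells. The treated samples were all more than 3 log2 units above the untreated ones. Its log2 change was 3.32 ± 0.086 (limma adjusted p = 3.86e-08), while Rgp1 was at 0.26 (-0.22 under median centring) and Rab6a itself at -0.06. Rabgef1, the Rab5 exchange factor also called Rabex-5, rose by 1.89, and its second probe read 1.73. Rab3ip, the Rab8 exchange factor Rabin8, rose by 1.26 and Dennd4a by 1.77, although a second Dennd4a probe read 0.37. Rin2, another Rab5 exchange factor, fell by 1.78, Dennd1c by 1.53, Dennd4b by 1.49 and Rab3il1 by 1.19 on the log2 scale. Exchange factors for the same Rab thus had opposite signs, Rabgef1 against Rin2 for Rab5 and Dennd4a against Dennd4b for Rab10. Of the Mon1 and Ccz1 proteins, which activate Rab7, Mon1b was at -0.56 and Ccz1 at -0.74, both called, and Mon1a at -0.03, not called. Hps1, which in a complex with Hps4 activates Rab32 and Rab38, fell by 0.77, and Hps4 was at 0.10 and not called.

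Of 33 GTPase-activating proteins, 10 rose and 18 fell (30.3% and 54.5%, beside 24.5% and 46.1% of all genes). After centring on the measured genes 13 were higher and 14 lower, beside 35.2% and 36.7% of all genes. Under median centring 8 of the 10 that rose turned negative, all but Tbc1d10a and Rabgap1. Tbc1d10a, which acts on Rab27a and Rab35, had levels of 11.42, 11.40 and 11.51 in treated cells, against 9.48, 9.61 and 9.59 in untreated cells, a log2 change of 1.88 ± 0.083 (limma adjusted p = 3.87e-07). Rabgap1 rose by 1.45 on 1 probe, with the other at 0.04, Tbc1d20, which acts on Rab1, by 0.93 (-0.25 under median centring) and Tbc1d9b by 0.81 (-0.33). Tbc1d5, which acts on Rab7, fell by 1.55 on the log2 scale. Tbc1d4 and Tbc1d14 each fell by 1.28, with second probes at -0.53 and -0.39, and Tbc1d7, also a subunit of the TSC complex, fell by 1.18.

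Of 46 effectors and Rab kinases, 9 rose and 24 fell (19.6% and 52.2%, beside 24.5% and 46.1% of all genes). After centring on the measured genes 13 were higher and 18 lower, beside 35.2% and 36.7% of all genes. Under median centring 3 of the 9 that rose turned negative. Micall2, which binds Rab8 and Rab13, rose by 1.99 ± 0.082 and Rab11fip1, which binds Rab11, by 1.78 ± 0.082. Optn, which binds Rab8, rose by 1.27 and Inpp5b, a phosphatase that binds Rab5, by 1.12 (-0.02 under median centring). Of the Rabs these partners bind, Rab8a was not called, Rab13 fell by 0.48 on the log2 scale, and Rab11a was at 0.33 after loess and -0.82 under median centring. Lrrk1, a kinase that phosphorylates Rab7, had levels of 8.26, 8.10 and 8.07 in treated cells, against 10.53, 10.38 and 10.55 in untreated cells, a log2 change of -2.35 ± 0.086 (limma adjusted p = 1.73e-07), with a second probe at -1.78. Osbpl1a, a Rab7 effector, fell by 1.37 with other probes at -0.77 and -0.65. Myo5a, the motor that Rab27a recruits through melanophilin, fell by 1.33 and Appl2, a Rab5 effector, by 1.26 on the log2 scale.

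**Figure D5:**
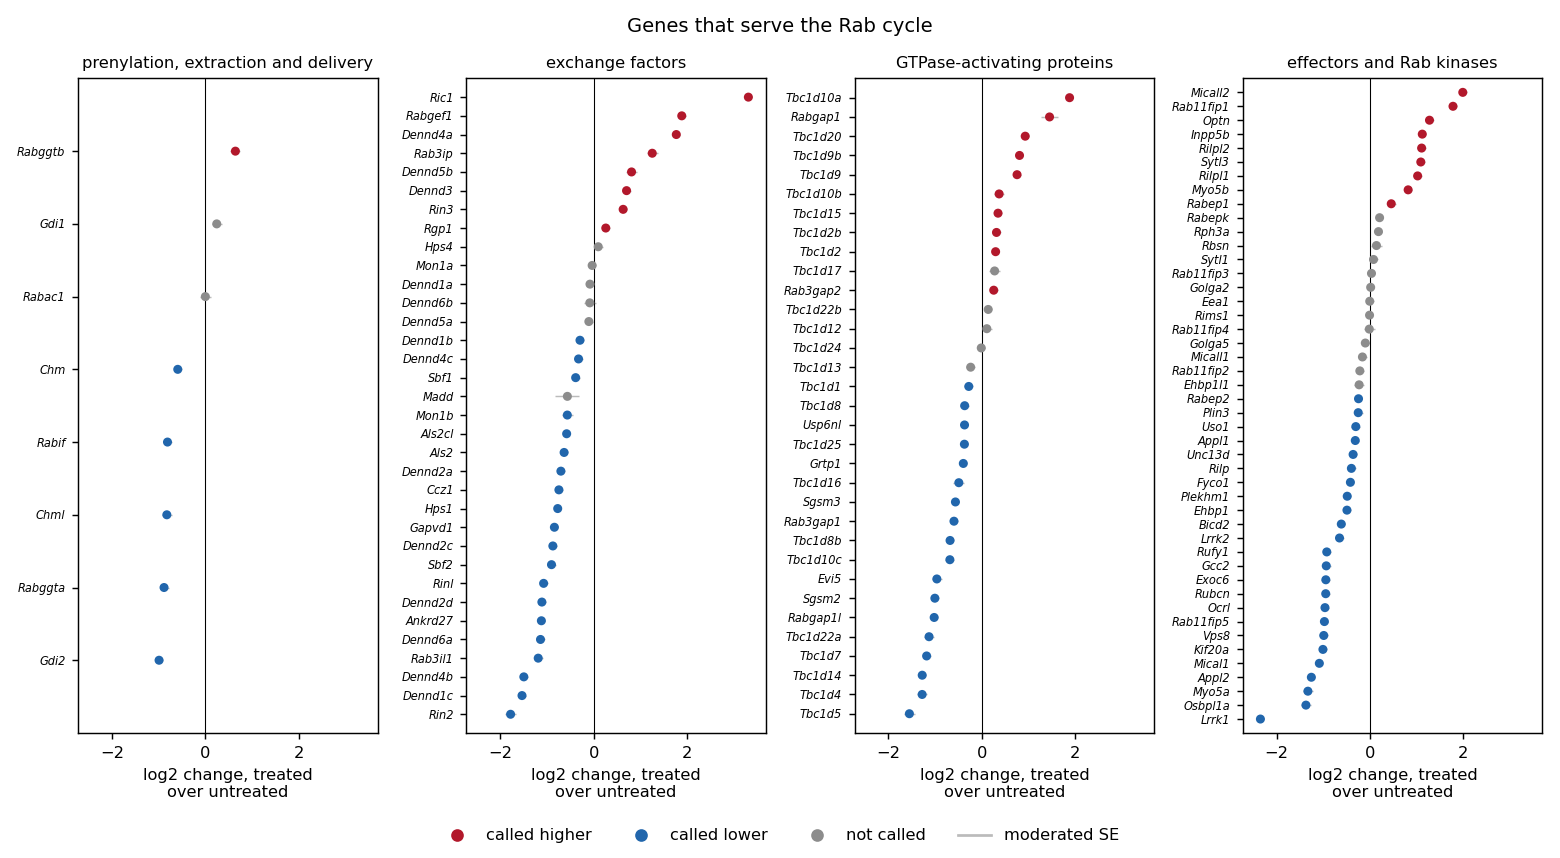
Log2 change of treated over untreated cells (horizontal axis) for each measured gene that loads, activates, inactivates or reads Rab proteins, in panels by role, with bars for the moderated SE. Ric1 at 3.32 lies farthest to the right and Lrrk1 at -2.35 farthest to the left, and no gene is called under median centring.

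Other small GTPases of membrane traffic were read for contrast. The 25 measured Arf, Arl and Sar genes had a median of -0.09, and 7 of them rose while 7 fell (9 and 7 after centring on the measured genes). Before that centring these are 28% and 28%, beside 24.5% and 46.1% of all genes. After it the shares of all genes were 35.2% and 36.7%. Under median centring 6 of the 7 that rose turned negative, all but Arl5b. Arl5b at 1.24 and Arl4a at 1.01 rose most, then Arl1 at 0.84 and Arf6 at 0.45, and Arl11 at -2.06, Arl6 at -1.14, Arl5a at -0.89 and Arl16 at -0.83 fell most. Of 4 measured Rab-like GTPases outside the naming rule, Rabl3 rose by 0.23 (-0.47 under median centring) and 3 fell, Rabl2 by 1.65 (second probe -0.54), Ift27 by 1.23 and Rabl6 by 0.77 on the log2 scale. The shares of this short list were 25% higher and 75% lower, beside the same 24.5% and 46.1% of all genes. Whether these lists differ from the Rab genes was not tested.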

How the data were processed

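Total RNA of treated and untreated macrophages was hybridised to 3 Agilent 2-colour arrays. Per the submitters' processing notes, they were quantified with Agilent Feature Extraction 10.7.3.1. The deposited intensity columns, per the file headers, hold the median signal of each spot and of its surround in both dyes, not normalized, and the deposited log10 ratio is Cy5 over Cy3 after the scanner software's own background and dye correction. The authors' deposited table holds log2 ratios, and the steps behind it are not given in the sources used here. Against loess ratios of treated over untreated its 3 columns had r = 0.994, 0.990 and 0.992 and slopes of 1.04, 1.08 and 1.05, so its direction was taken as treated over untreated, and it served as an alternative.

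With limma 3.58.1 (R 4.3.3), signals were corrected by normexp (offset 50) and each array by loess, in which control spots had no weight. Outlier spots (323, 303 and 299) were left out, no spot was saturated, spots of a probe were averaged, and the brightest measured probe stood for each gene. Symbols came from a RefSeq table (GRCm38.p6), which named 27235 of 55681 probes with 1 symbol. Log2 ratios, turned by the dyes in the labels, were tested with lmFit and eBayes (prior df 6.22, residual df 2) over 13179 genes and adjusted by Benjamini-Hochberg. Only 3 arrays limit the precision, with a median SE of 0.088. Channel levels are after loess and Aquantile scaling and are not comparable between probes. A bound ("at least") sets the untreated mean against the lowest signal that counted as well above background or the probe's own, whichever was higher, on each array. Such a bound holds for the levels after loess only. Ratios of the arrays correlated at r = 0.943 to 0.968 across genes, which are not independent replicates.

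Levels in both channels of every array were given for Rab genes changed at least 2-fold and for the largest change in each role, members with discordant probes were named with each probe, and up to 4 called genes per direction were named in each list of the Rab cycle. Markers for 8 cell types were read. The members, roles and lists were chosen with earlier results of these data known. The scripts were tested on simulated data. Alternatives were other background corrections, centrings, filters and probe rules, a dye term, array weights, a separate-channel fit and leaving out each array.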

Additional observations from a re-analysis of the deposited data

How the results depend on the processing

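Of the 15 alternatives, median centring of each array in place of loess changed most, and the cause was not tested. It called 0 genes in all, 0 Rab genes and 0 Rab cycle genes in either direction, and the medians were -1.03 for all genes and -1.18 for the Rab genes. Of the Rab genes called higher, 9 turned negative in it, Rab22a at -0.76, Rab34 at -0.54, Rab9 at -0.47, Rab32 at -0.60, Rab4a at -0.54, Rab10 at -0.78, Rab11a at -0.82, Rab3a at -0.18 and Rab3c at -0.53. All 11 higher genes lay above its median of all genes, and 21 of the 26 lower ones lay below it. The same share over all called genes was not counted, so these counts show nothing particular to Rab genes. Under median centring the lowest limma adjusted p of a Rab gene was 0.074.

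Centring on the measured genes gave medians of 0.0018 for all genes and -0.072 for the Rab genes. With no filter on dim probes the medians were -0.016 and -0.13. The Rab median was -0.19 with normexp offset 0 and -0.20 with the dye term. Averaging probes turned Rab43 to 0.42 (limma adjusted p = 0.00099).

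Leaving out each array in turn gave 11 to 11 Rab genes higher and 19 to 26 lower, 25 to 28 Rab cycle genes higher and 62 to 66 lower, and 2761 to 3150 genes higher and 5368 to 6144 lower overall. The medians were -0.25 to -0.21 for the Rab genes and -0.18 to -0.15 for all genes. Without replicate 2 both remaining arrays carried treated RNA in Cy3, so that fit cannot separate treatment from dye. Over the 14 settings other than median centring, Rab20 was 2.02 to 2.24, Rab19 -2.72 to -2.33 and Rab7b -1.96 to -1.73. The dim genes Rab39 and Rab23 reached -3.86 and -2.91. A slide or scan block was not run, since all 3 arrays share 1 slide and 1 scan. No paired analysis was possible because the arrays form 1 group, and each ratio already pairs a treated with an untreated sample.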
